A study of Mus musculus with 16 samples.

Results

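Expression of 32 genes of otic mesenchyme, cartilage and bone was followed through loss of Lgr5+ supporting cells in the neonatal mouse cochlea. The set was taken by name from the deposited expression tables, which hold values for 47729 genes. Of the 32 genes, 31 were found by symbol and 1, Cnmd, by gene identifier because the tables list it as Lect1. Enough reads for a test were found for 29, and the other 3, Matn3, Bglap and Comp, had at most 9, 13 and 19 reads in any library.

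Periotic mesenchyme surrounds the otic epithelium and gives rise to the fibrocytes of the spiral ligament and spiral limbus, to the cells that line the perilymph spaces and to the bony capsule. In mesenchymal and cartilage cells, transcription factors such as Sox9, Sox5 and Sox6 drive genes of the cartilage matrix, while Runx2 and then Sp7 set the bone program. Pou3f4 and Tbx18 are transcription factors that the otic mesenchyme needs for normal hearing. The matrix genes encode small proteoglycans of collagen fibrils (Dcn, Lum, Ogn, Fmod), proteins that link the matrix (Postn, Emilin2, Comp and the matrilins) and proteins of bone mineral (Spp1, Ibsp, Bglap).

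Cochleae were collected at P4 in 16 libraries, 4 each of control input, DTR input, control IP and DTR IP. Control mice were GLAST CreERT/+; Rpl22 HA/+, and DTR mice carried in addition the Lgr5 DTR/+ allele, which places the human diphtheria toxin receptor under the endogenous Lgr5 gene. The study's text states that both groups received diphtheria toxin and tamoxifen on the first postnatal day, whereas the sample labels give no treatment for controls. Cre under the GLAST (Slc1a3) gene marks inner phalangeal cells and the greater epithelial ridge (GER). The HA-tagged ribosomal protein Rpl22 is thus made in those cells and in any other cell in which this Cre is active. The immunoprecipitated (IP) RNA is enriched for RNA of these cells and can also hold RNA of others. The study used IP over input to gauge whether a signal comes from the tagged cells or mainly from others. Each replicate was a pool of cochleae from several mice, dissected free of spiral ganglion, lateral wall and Reissner's membrane. The study used mice of both sexes, and the sexes within each pool are not given in the sources used here. Each of the 8 pools gave an input library, from 5% of its homogenate, and an IP library, from the other 95%, under 1 replicate number. Spiral ligament is part of the lateral wall, and how much of it was left was not measured. The sampled mesenchyme is what stayed with the duct.

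Counted reads per library ranged from 28089836 to 41966310, so that 3 reads correspond to 0.0715 to 0.107 CPM, the reads of a gene scaled to a total of 1000000 per library. Lgr5 itself fell from 59.0 to 66.1 CPM in control input to 11.2 to 19.6 in DTR input, and from 31.4 to 40.0 in control IP to 8.13 to 11.3 in DTR IP. DTR mice carry the knock-in allele at Lgr5 and controls do not, and the part of this allele in the fall was not tested. The 10 listed GER and supporting cell markers summed to 7310 to 10544 CPM in control input and 5582 to 6469 in DTR input, and to 7207 to 8086 in control IP and 3809 to 5345 in DTR IP. In control IP against input 5 of these 10 were called higher and 3 lower, and Slc1a3 stood at 236 ± 21.9 and 281 ± 14.3 CPM (SD, n = 4). Since CPM are shares of a library, an increase of other genes and a loss of these abundant transcripts cannot be told apart, nor can fewer cells of a type and less RNA per cell. Changes are given as log2 fold change (LFC) of quantile-normalised CPM with a pseudocount of 0.5, with its standard error (SE), and were called at an adjusted p under 0.05 in limma over 16994 genes.

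In control input the levels per kilobase of exon spanned the whole range from abundant to barely detected. The length used was that of all annotated exons of a gene merged, so the order among genes also depends on the annotation. Otor, a secreted protein of cochlear fibrocytes, was first at 3680 ± 352 CPM per kb (SD, n = 4). The next 3 by mean were Lum at 648 ± 44.3, Cnmd at 618 ± 70.9 and Otos at 606 ± 132 CPM per kb, and these differed from each other by less than their SD. Dcn followed at 167 ± 6.01 and Coch at 116 ± 26.6 CPM per kb. Coch encodes cochlin, the main non-collagen protein of the inner ear matrix. At the lower end of the tested genes stood Acan, Twist2, Hapln1, Sp7 and Runx2, between 1.64 and 1.03 CPM per kb. Bone and cartilage genes were detected unequally. Ibsp and Spp1, both proteins of bone matrix, reached 55.8 ± 17.6 and 106 ± 80.6 CPM per kb, whereas osteocalcin (Bglap), which also has near-identical paralogs, was at 0.181 ± 0.228. Among the cartilage matrix genes of the set, the highest were Cnmd, an inhibitor of blood vessel growth, Matn4 and Matn1, while aggrecan (Acan) was at 1.64 ± 0.110 and Comp at 0.0609 ± 0.0469 CPM per kb. This order leaves out cartilage genes outside the set, of which Col2a1 was at 11362 ± 1682 CPM against 1139 ± 131 for Cnmd.

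Damage was first compared in input, which asks whether these genes change in the whole dissected tissue. 5 genes were higher in DTR input and 1 was lower, of 29 tested. Among all tested genes 7.17% were called higher and 5.21% lower. All 5 were higher without overlap between the groups, which held for 6.64% of all genes, and 0 were lower without overlap (4.53%). They were Ogn, Postn and Dcn of the fibrous matrix and Matn1 and Cnmd of the cartilage matrix, with LFC between 0.38 and 0.79. Emilin2 was the gene that fell. No gene reached an absolute LFC of 1 with a separation of the groups above 1.5, as 2.34% of all genes did. The median LFC was 0.15 for the 29 genes and −0.02 for all genes. All 7 mesenchymal transcription factor and receptor genes had a small positive LFC, from 0.05 for Pdgfra to 0.37 for Twist2, and 0 were called. Likewise 0 of the 5 tested bone genes and 0 of the 3 cartilage transcription factors were called, with LFC between −0.61 (Ibsp) and 0.22 (Runx2).

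Ogn (osteoglycin, chr13:49608046-49624501 in GRCm38) showed the largest increase. Its levels were 90.6, 96.1, 66.5 and 83.4 CPM in control input and 163, 168, 158 and 103 CPM in DTR input, numbered 1 to 4. All DTR libraries lay above all control libraries, with library 4 nearest to them. The LFC was 0.79 (SE 0.15, adjusted p = 0.00106).

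Matn1, or cartilage matrix protein (chr4:130944385-130955475), was measured at 62.2, 72.0, 105 and 78 CPM in control input and at 114, 133, 126 and 116 CPM in DTR input. The groups did not overlap, and the spread was wider among controls. Its LFC was 0.63 (SE 0.17, adjusted p = 0.0199).

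Cnmd (chondromodulin, chr14:79637690-79662170) stood at 1015, 1112, 1323 and 1106 CPM in control input. In DTR input it was at 1418, 1499, 1827 and 1515 CPM, higher in each library than in any control. The number 3 library was the highest of both groups. The LFC was 0.54 (SE 0.10, adjusted p = 0.00145).

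Postn encodes periostin, a matricellular protein of collagen-rich tissue (chr3:54361109-54391037). It had 104, 99.1, 100.4 and 91.9 CPM in control input and 151, 131, 151 and 123 CPM in DTR input. The control libraries were close together, and the groups did not overlap. The LFC was 0.48 (SE 0.12, adjusted p = 0.00935).

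Dcn (decorin) went from 973 ± 35.1 to 1223 ± 152 CPM (SD, n = 4) with an LFC of 0.38 (SE 0.10, adjusted p = 0.0181), without overlap. Emilin2, an elastin microfibril glycoprotein found in the cochlear basilar membrane, had 232, 327, 397 and 345 CPM in control input and 117, 210.3, 142 and 242 CPM in DTR input. The highest DTR library exceeded the lowest control library, so the groups overlapped. Emilin2 fell by 0.87 on the log2 scale (SE 0.23, adjusted p = 0.0154).

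Calls of Ogn, Cnmd and Postn held without any one library. Matn1 was not called without control replicate 1 or 2 or DTR replicate 2 or 3 (adjusted p 0.0805, 0.0603, 0.0625 and 0.0537), Emilin2 without control replicate 3 or DTR replicate 1 or 3 (0.0571, 0.0682 and 0.0510), and Dcn without DTR replicate 1 or 3 (0.0806 and 0.0515). Without DTR input replicate 3 the count was thus 3. Dcn also lost its call without quantile normalisation (adjusted p = 0.0911), with median centring (0.189) and in edgeR and DESeq2 (0.0938 and 0.104), and Emilin2 and Matn1 lost theirs without the filter on low values (0.0507 and 0.0531).

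Libraries of the same replicate number deviated together on average, and a fit with this number as a block called 10 genes in input, 8 higher and 2 lower. Over all genes this fit called 9.76% higher and 7.99% lower, also more than without the block. The additional genes were Otos (LFC 0.77, adjusted p = 0.00174 with the block and 0.0774 without), Coch (0.42, 0.0276 against 0.163), Tbx18 (0.31, 0.0310 against 0.141) and Ibsp (−0.61, 0.0109 against 0.176).

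**Figure D1:**
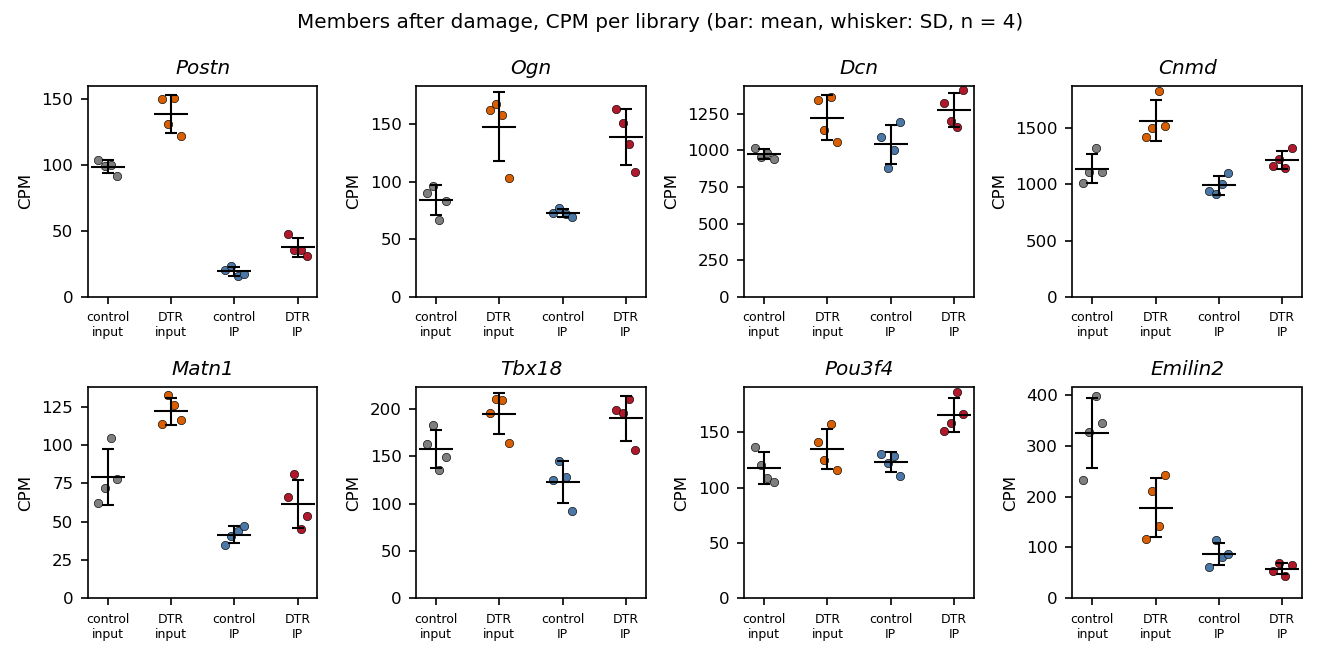
CPM per library (vertical axis, linear from 0) of 8 genes in control input, DTR input, control IP and DTR IP. Points are libraries, horizontal bars means and whiskers SD (n = 4). Postn stood at 91.9 to 104 CPM in control input and 123 to 151 in DTR input, and at 16.1 to 23.5 and 31.2 to 47.5 in the IP, so that both IP groups lay under both input groups.

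The same comparison in the IP asks whether the genes change in ribosome-bound RNA of the GLAST-Cre+ preparation. 9 of the 29 genes were higher in DTR IP and 0 were lower, against 8.44% and 7.3% of all tested genes. Without overlap 6 were higher and 0 lower (6.81% and 5.39% of all genes), and 12 of the 29 had an unadjusted p under 0.05, as did 28.4% of all genes. Again 0 passed the criteria of an absolute LFC of 1 and separation, which 2.47% of all genes passed. The higher genes were Postn, Ogn and Dcn, the mesenchymal factors Tbx18 and Pou3f4 with the receptor Pdgfra, Coch, and Matn1 and Cnmd. All 7 genes of the mesenchymal transcription factor and receptor group had a positive LFC, of which 3 were called. Of the 5 tested bone genes and the 3 cartilage transcription factors 0 were called, with LFC between −0.36 (Ibsp) and 0.27 (Alpl), and Lum, a proteoglycan like Dcn, had an LFC of 0.03 (SE 0.14). The median LFC of the 29 genes was 0.27 and that of all genes −0.00432.

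Ogn was at 73.1, 77.6, 71.8 and 69.6 CPM in control IP and at 164, 151, 133 and 108 CPM in DTR IP. The controls were tight and the DTR libraries all higher. The LFC was 0.93 (SE 0.15, adjusted p = 0.000201), a fold change of 1.90.

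Postn had 20.7, 23.5, 16.1 and 17.5 CPM in control IP and 47.5, 35.7, 35.9 and 31.2 CPM in DTR IP. The lowest DTR library was above the highest control library. The LFC was 0.89 (SE 0.12, adjusted p = 2.92e-05).

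Tbx18 encodes a T-box factor of the mesenchyme that forms fibrocytes of the spiral ligament (chr9:87702800-87731260). In control IP it was measured at 125, 145, 128 and 92.5 CPM and in DTR IP at 199, 196, 211 and 156 CPM. The groups did not overlap, and library 4 was the lowest in each. The LFC was 0.67 (SE 0.13, adjusted p = 0.00105). An antisense gene, D030062O11Rik, shares exonic bases with Tbx18, and similar antisense overlaps exist for Twist2, Pdgfra, Runx2 and Matn4, so that reads of such pairs cannot be told apart without strand. In input the Tbx18 values were 163, 183, 136 and 149.5 CPM against 196, 211, 209 and 164 CPM, which overlapped.

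Pou3f4 encodes a POU-domain factor on the X chromosome whose loss causes deafness (chrX:110814280-110817207). It stood at 131, 122, 129 and 111 CPM in control IP and at 151, 158, 186 and 166 CPM in DTR IP. Every DTR library was higher than every control library. The LFC was 0.44 (SE 0.11, adjusted p = 0.00931). Input values of 136, 120.3, 109 and 105 CPM in controls and 141, 125, 157 and 116 CPM in DTR cochleae overlapped, with an LFC of 0.20 (SE 0.11, adjusted p = 0.302).

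Pdgfra, the receptor for platelet-derived growth factor on mesenchymal cells, rose from 106 ± 17 to 143 ± 11.0 CPM (SD, n = 4) without overlap (LFC 0.43, SE 0.12, adjusted p = 0.0164). Coch went from 351 ± 88.5 to 522 ± 78.9 CPM (LFC 0.68, SE 0.18, adjusted p = 0.0137), where the lowest DTR library at 459.7 CPM was under the highest control library at 469 CPM. Dcn (LFC 0.35, adjusted p = 0.0252) and Matn1 (LFC 0.52, adjusted p = 0.0489) overlapped in 1 library each, while Cnmd did not overlap (LFC 0.34, adjusted p = 0.0294).

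Ogn, Postn, Tbx18 and Pou3f4 were called in each of the alternatives tried on this adjusted p, and they were the 4 that edgeR called. DESeq2 called 9, leaving out Coch, Cnmd and Dcn (adjusted p 0.0797, 0.248 and 0.259) and adding Emilin2, Otor and Twist1 (0.0348, 0.0425 and 0.0411). Without control IP replicate 3 the count was 4, since Matn1, Cnmd, Dcn, Pdgfra and Coch then had adjusted p of 0.0723, 0.0549, 0.0613, 0.0550 and 0.0501. Pdgfra was also not called without control replicate 4 (0.0536), Dcn without control replicate 2 or DTR replicate 1 (0.0775 and 0.0622), and Cnmd without control replicate 1 or 4 or DTR replicate 1 (0.0794, 0.0568 and 0.0655). Matn1 was not called without control replicate 1 or 2 or DTR replicate 1, 2 or 4 either (0.151, 0.104, 0.104, 0.153 and 0.0574).

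Blocking on the replicate number gave 13 called genes in the IP, 12 higher and 1 lower, and 12.2% and 11.1% of all genes. The 4 added were Matn4 (LFC 0.48, adjusted p = 0.00746 with the block and 0.167 without), Otos (0.53, 0.0191 against 0.211), Twist1 (0.39, 0.0420 against 0.0962) and Emilin2 (−0.59, 0.00444 against 0.0908), the last in the downward direction. The LFC of Otos ranged from 0.53 to 0.77 over the alternatives that kept all replicates.

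**Figure D2:**
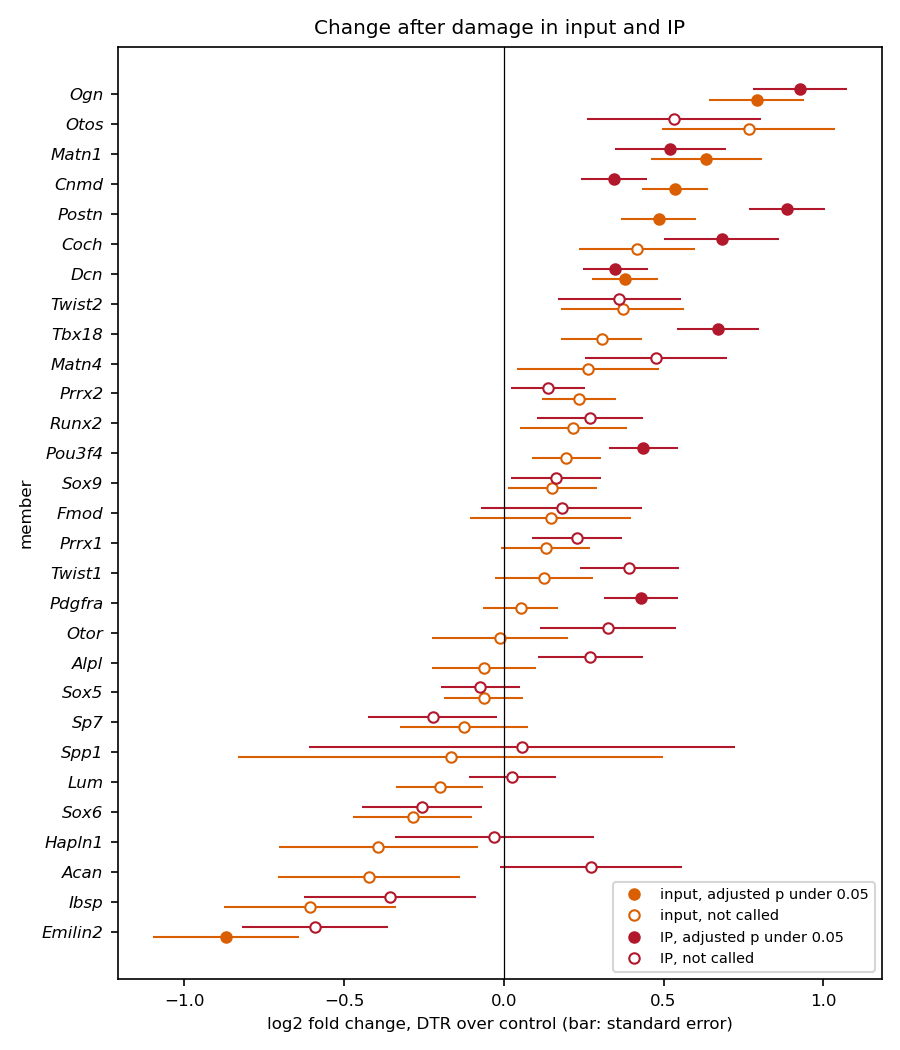
LFC of DTR over control (horizontal axis, log2) for the 29 tested genes, in input and in IP, with SE as bars and filled points where the adjusted p was under 0.05. Ogn was at 0.79 in input and 0.93 in IP, and Emilin2 was lowest in both at −0.87 and −0.59, filled in input alone.

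Cnmd, Dcn, Matn1, Ogn and Postn were called higher in both input and IP, that is 5 of the 5 genes higher in input and 5 of the 9 higher in IP. Of all tested genes 4.88% were called higher in both, which is 68.1% of those higher in input and 57.9% of those higher in IP. The IP calls of Cnmd, Dcn and Matn1 held in 9, 10 and 8 of 19 alternatives, and were lost among others with median centring (adjusted p 0.263, 0.258 and 0.0672), without the filter on low values (0.0699, 0.0583 and 0.109) and in a fit of the compared groups alone (0.0572, 0.0625 and 0.0894). Input and IP of a pool came from the same homogenate, so the comparisons are not independent of each other. Whether the change after damage differed between IP and input was tested as an interaction. 0 of 29 genes were called, with 0.0 and 0.0118% of all genes called higher and lower, and edgeR and DESeq2 called 0 as well. 2 of the 29 had an unadjusted p under 0.05, as did 5.12% of all genes. They were Postn (difference of LFC 0.40, SE 0.17, adjusted p = 0.862) and Pdgfra (0.38, SE 0.17, adjusted p = 0.920). Tbx18 and Pou3f4, called in IP and not in input, had differences of 0.36 (SE 0.18) and 0.24 (SE 0.15), with adjusted p of 0.982 and 0.999.

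Upstream sequence is shown for 4 of the 5 genes that were higher in both preparations, the fifth, Dcn, being without an entry in the RefSeq promoter table used (GRCm38.p6). The 150 bases before the RefSeq start nearest to the annotated gene start are given 5′ to 3′ on the coding strand. Capitals mark matches to an E-box (CANNTG), bound by Twist-type factors, the RUNX motif (ACCACA or its reverse complement TGTGGT), the SOX motif (ACAAT or ATTGT) and the TATA box (TATAAA, coding strand).
Ogn, chr13:49607865-49608014, + strand: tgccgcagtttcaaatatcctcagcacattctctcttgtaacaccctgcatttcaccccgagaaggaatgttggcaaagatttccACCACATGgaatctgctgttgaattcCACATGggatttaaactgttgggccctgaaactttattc
Postn, chr3:54360957-54361106, + strand: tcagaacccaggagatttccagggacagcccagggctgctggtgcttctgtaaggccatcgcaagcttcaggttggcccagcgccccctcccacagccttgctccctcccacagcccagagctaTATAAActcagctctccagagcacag
Matn1, chr4:130944235-130944384, + strand: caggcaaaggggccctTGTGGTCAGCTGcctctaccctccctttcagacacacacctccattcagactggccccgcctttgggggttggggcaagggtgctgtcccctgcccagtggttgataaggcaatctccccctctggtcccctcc
Cnmd, chr14:79662184-79662333, − strand: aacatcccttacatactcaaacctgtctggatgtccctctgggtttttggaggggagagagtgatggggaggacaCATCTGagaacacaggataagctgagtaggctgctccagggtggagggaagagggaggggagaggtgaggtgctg
In Ogn the RUNX and the first E-box match overlap, in Matn1 they adjoin each other, Cnmd holds an E-box alone and Postn a TATA box close to its start. An E-box lies in 47.7%, the SOX motif in 17.4%, the RUNX motif in 8.40% and the TATA box in 4.84% of all 32851 promoter windows of this length. Over the full 250 bases upstream, 17 of the 27 genes of the set with an entry held an E-box, 6 the SOX motif, 7 the RUNX motif and 6 the TATA box, against 66.2%, 27.7%, 14.0% and 7.59% of all promoters. These are matches of letters, and binding was not measured.

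IP over input was compared next, which asks how far each gene is over- or under-represented in the IP, the preparation enriched for GLAST-Cre+ cells. In controls 5 of 29 genes were higher in the IP and 9 were lower, where 19.3% and 20.7% of all genes were called. In DTR cochleae 6 were higher and 5 lower, where 18.6% and 20.5% of all genes were called. Without overlap 3 were higher and 8 lower in controls (15.3% and 18.3% of all genes) and 3 and 4 in DTR cochleae (15.2% and 15.1%). An absolute LFC of at least 2 with separation was met in controls by Sox5, Sox6 and Postn (1.26% of all genes) and in DTR cochleae by Sox5 and Sox6 (0.977%). The largest LFC were those of Sox5 and Sox6, which were over 4 times higher in the IP, and of Spp1, Postn and Emilin2, which were lower in it, while the other called genes had LFC in controls between −1.17 and 0.64. Bone genes were called in both directions in controls (2 higher, 2 lower), as were the mesenchymal factors and receptor (1 higher, 2 lower), and 15 of the 29 genes were not called.

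Sox6 encodes an SRY-type factor that acts with Sox5 and Sox9 in cartilage (chr7:115470872-116038796). It was measured at 22.3, 30.8, 32.8 and 27.8 CPM in control input and 116, 148, 148 and 93.6 CPM in control IP. In DTR cochleae the values were 18.3, 25.8, 27.6 and 22.6 CPM in input and 80.6, 119, 138 and 91.5 CPM in IP. Each IP library was at least 3.37 times its own input in controls and 4.05 times in DTR cochleae. The LFC was 2.11 (SE 0.19, adjusted p = 7.88e-08) in controls and 2.14 (SE 0.19, adjusted p = 8.57e-08) in DTR cochleae.

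Sox5, its closest relative (chr6:143828425-144781977), had 43.9, 49.9, 49.4 and 48.3 CPM in control input and 199.9, 235, 229 and 166 CPM in control IP. In DTR cochleae it had 41.8, 47.5, 48.1 and 47.3 CPM in input and 175, 213, 230.2 and 158 CPM in IP. Input libraries were nearly alike in both treatments, and IP over input was 3.43 to 4.71 in control and 3.34 to 4.79 in DTR pools. The LFC was 2.10 (SE 0.12, adjusted p = 5.96e-10) and 2.08 (SE 0.12, adjusted p = 7.22e-10). An antisense gene, Sox5os1, shares exonic bases with Sox5, and the strand setting of the counting is not given in the sources used here. Sox5 and Sox6 also have the greatest total exon length of the set (14376 and 14832 bases). Both were also called in the fit with a trend on gene length removed, and the part of length in their LFC was not tested.

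Sox9, the third factor of this group, was at 245, 245, 303 and 303 CPM in control input and 290.4, 243, 273 and 366 CPM in control IP. After damage it was at 275, 268, 303 and 366 CPM in input and 309.7, 275, 313 and 373 CPM in IP. All 4 groups overlapped, and the LFC of IP over input was 0.15 and 0.16 (SE 0.14 each, adjusted p = 0.442 and 0.408). After damage it was 0.15 in input and 0.16 in IP (SE 0.14 each, adjusted p = 0.592 and 0.50).

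The bone factors Runx2 and Sp7, at far lower levels, were also called higher in the IP of both treatments. Runx2 was at 12.9, 8.91, 12.3 and 9.62 CPM in DTR input and 16.9, 16.2, 18.9 and 15.6 CPM in DTR IP, without overlap. The LFC was 0.61 (SE 0.17, adjusted p = 0.00666) in DTR cochleae and 0.56 (SE 0.17, adjusted p = 0.0113) in controls, where the groups overlapped. For Sp7 the LFC was 0.64 in controls and 0.54 in DTR cochleae (SE 0.20 each, adjusted p = 0.0168 and 0.0411). The Sp7 call in DTR cochleae held in 8 of 20 alternatives and was lost in edgeR and DESeq2 (adjusted p = 0.102 and 0.0815), without quantile normalisation (0.0801) and with median centring (0.0924).

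Twist2, a basic helix-loop-helix factor of dermal and other mesenchyme, had 5.24, 5.55, 3.97 and 5.85 CPM in control input and 7.95, 7.10, 6.50 and 6.90 CPM in control IP. All IP libraries were higher, with an LFC of 0.52 (SE 0.19, adjusted p = 0.0389), and in DTR cochleae it was 0.51 (SE 0.19, adjusted p = 0.0442). Pou3f4 was higher in the IP after damage alone by this threshold (LFC 0.34, SE 0.11, adjusted p = 0.0198, against 0.10, SE 0.11, adjusted p = 0.519 in controls), and its interaction was not called.

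Postn stood at the other end. Its IP libraries in controls, at 16.1 to 23.5 CPM, were 4.22 to 6.24 times lower than the input of the same pool, and in DTR cochleae 3.17 to 4.22 times lower. The LFC was −2.30 (SE 0.12, adjusted p = 9.27e-11) and −1.90 (SE 0.12, adjusted p = 1.19e-09). Periostin mRNA was thus lower in IP than in input and higher after damage in each of them.

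Spp1 encodes osteopontin, which bone cells, macrophages and several other cells make. It was at 311, 267, 69.9 and 52.9 CPM in control input and at 45.6, 36.5, 14.3 and 9.94 CPM in control IP. In DTR cochleae the values were 303, 179, 106 and 32.6 CPM in input and 62.0, 27.1, 19.3 and 10 CPM in IP. The IP was lower than its own input in all 8 pools, by 3.27 to 7.32 times, although the DTR groups as a whole overlapped. The LFC was −2.50 (SE 0.67, adjusted p = 0.00573) in controls and −2.28 (SE 0.67, adjusted p = 0.0110) in DTR cochleae. A second annotated gene, Gm42793, shares exonic bases with Spp1 on the same strand.

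Emilin2 was at 62.3, 114, 80.7 and 87.0 CPM in control IP and 53.2, 69.0, 44.6 and 66.1 CPM in DTR IP, below the input values given above in every pool. Its LFC was −1.85 (SE 0.23, adjusted p = 4.15e-06) in controls and −1.57 (SE 0.23, adjusted p = 2.96e-05) in DTR cochleae. Matn1 had 34.5, 40.8, 43.7 and 47.3 CPM in control IP and 66.0, 80.9, 45.5 and 53.7 CPM in DTR IP, again below all input libraries of the same treatment. The LFC was −0.91 (SE 0.17, adjusted p = 0.000391) and −1.02 (SE 0.17, adjusted p = 0.000149).

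Hapln1, which links aggrecan to hyaluronan, was the tested gene nearest to the expression filter. It had 13.7, 6.45, 3.12 and 4.61 CPM in control input and 2.48, 2.12, 1.88 and 2.29 CPM in control IP. The groups did not overlap, and library 1 of the input was far above the other 3. The DTR values were 5.44, 3.91, 6.28 and 3.56 CPM in input and 1.74, 2.31, 3.35 and 2.53 CPM in IP. The LFC was −1.17 (SE 0.31, adjusted p = 0.00582) and −0.80 (SE 0.31, adjusted p = 0.0486). Comp, the nearest on the other side of the filter, had 0.286, 0.310, 0.0242 and 0.103 CPM in control input, 0.266, 0.580, 0.153 and 0.305 in DTR input, 0.329, 0, 0 and 0.0327 in control IP and 0.257, 0.249, 0.0331 and 0.526 in DTR IP, which is 0 to 19 reads.

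In controls Acan (LFC −1.08), alkaline phosphatase (Alpl, −0.70), Pdgfra (−0.54) and Tbx18 (−0.34) were also lower in the IP, with adjusted p of 0.00513, 0.00218, 0.00116 and 0.0423. The same genes had LFC of −0.39, −0.36, −0.16 and 0.03 in DTR cochleae and were not called there, but none of these differences between treatments was called. 10 genes were called in both treatments, 5 in each direction, out of 15 called in either.

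**Figure D3:**
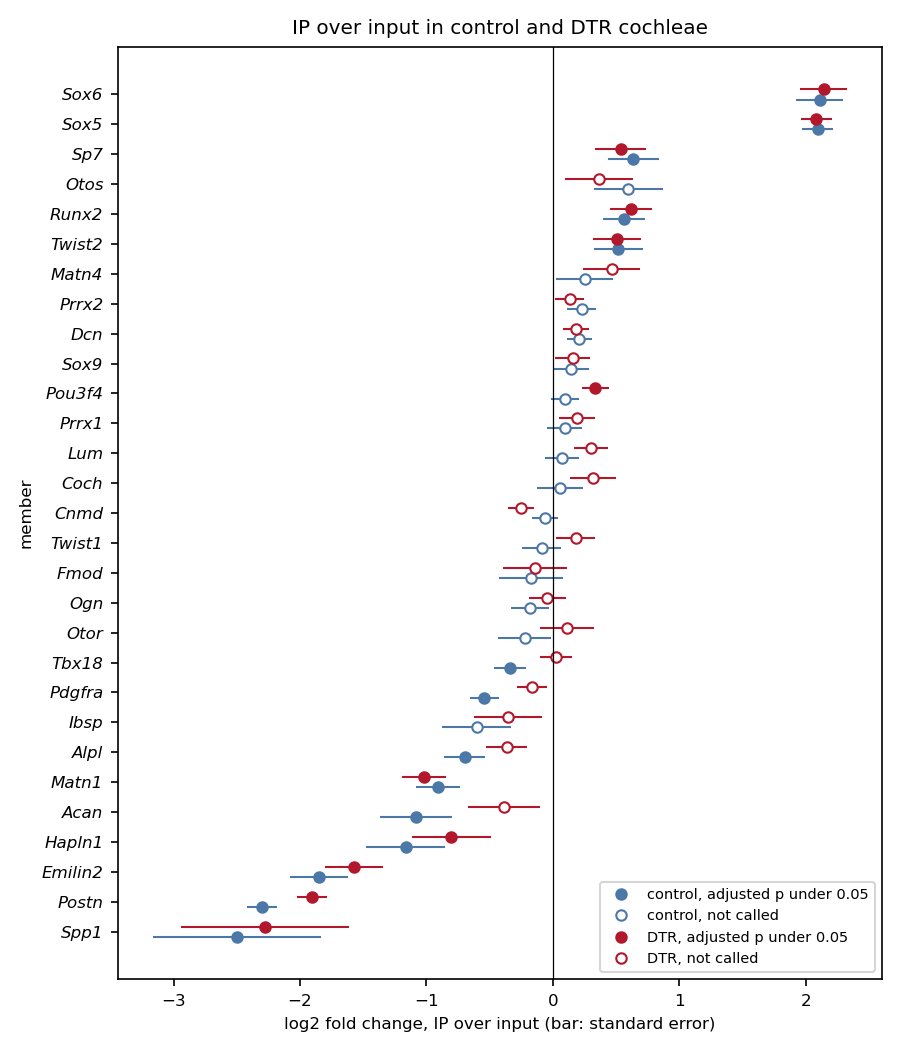
LFC of IP over input (horizontal axis, log2) for the 29 tested genes in control and DTR cochleae, with SE as bars and filled points where the adjusted p was under 0.05. Sox6 and Sox5 stood at 2.08 to 2.14 in both treatments, and Spp1, Postn and Emilin2 between −1.57 and −2.50.

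Of the calls in controls, Twist2 was lost without control input replicate 1, 2 or 3 or control IP replicate 1, 3 or 4 (adjusted p 0.0589 to 0.116), Tbx18 without control input replicate 1, 2 or 4 or control IP replicate 1, 3 or 4 (0.0579 to 0.151), and Sp7 without control input replicate 1 (0.0679). In DTR cochleae the calls of Hapln1, Sp7, Twist2 and Pou3f4 were each lost without several of the 8 libraries (6, 6, 5 and 3), with adjusted p of up to 0.143, 0.152, 0.168 and 0.0683. The count there was 7 without DTR input replicate 2. Scaling and tool ended some of these calls too. In controls Twist2 was not called without quantile normalisation, with median centring or with the gene length trend removed (adjusted p 0.0840, 0.0831 and 0.0662), nor Tbx18 in edgeR or with that trend removed (0.0791 and 0.0763), and neither was called without the filter on low values (0.0718 and 0.0879). In DTR cochleae Twist2 was lost in edgeR, with median centring and without quantile normalisation (0.0552, 0.0840 and 0.0666), Pou3f4 in edgeR, with median centring and with the length trend removed (0.0589, 0.0848 and 0.0520), and Hapln1 with the length trend removed, with a pseudocount of 1 and without the filter on low values (0.0819, 0.0557 and 0.130). Twist2 and Pou3f4 were lost in a fit of the compared groups alone too (0.0984 and 0.0543). Over 20 alternatives, the calls in DTR cochleae held in 11 for Hapln1, 9 for Twist2 and 13 for Pou3f4. With each pool as a block, 17 genes were called in DTR cochleae and 16 in controls, and of all genes 48.2% and 48.8%. The block added Ibsp (adjusted p = 0.000179 in controls and 0.00983 in DTR cochleae, LFC −0.60 and −0.35) and Otos (0.00184 and 0.0363, LFC 0.60 and 0.36) in both treatments. The LFC of Otos in DTR cochleae depended on the processing and ranged from 0.31 to 0.80 over the alternatives that kept all replicates. In DTR cochleae the block also added Matn4 (LFC 0.46, 0.00445), Coch (0.32, 0.0120), Alpl (−0.36, 0.0228) and Cnmd (−0.25, 0.0493).

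Several genes varied between pools in the same way in control and DTR libraries. Spp1 was above 170 CPM in input replicates 1 and 2 of both treatments and at 106 CPM or less in replicates 3 and 4. Fibromodulin (Fmod) was highest in the library numbered 4 of all 4 groups, at 39.3, 42.3, 43.6 and 45.2 CPM, and at 19.7 to 31.8 CPM in the others. Otos, a fibrocyte protein also called otospiralin, was highest in library 4 of each group as well, with 2458, 3613, 4925 and 7606 CPM in control input, DTR input, control IP and DTR IP. What the number stands for beyond the pool is not given in the sources used here. Otor spread similarly in DTR IP, at 4274, 4530.0, 8933 and 6019.8 CPM. It had an LFC after damage in input of −0.01 on quantile-normalised values, although mean CPM were 3492 ± 334 and 4556 ± 1215 (SD, n = 4), and under the other scalings and tools the LFC ranged up to 0.38, so no direction is given for it.

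**Figure D4:**
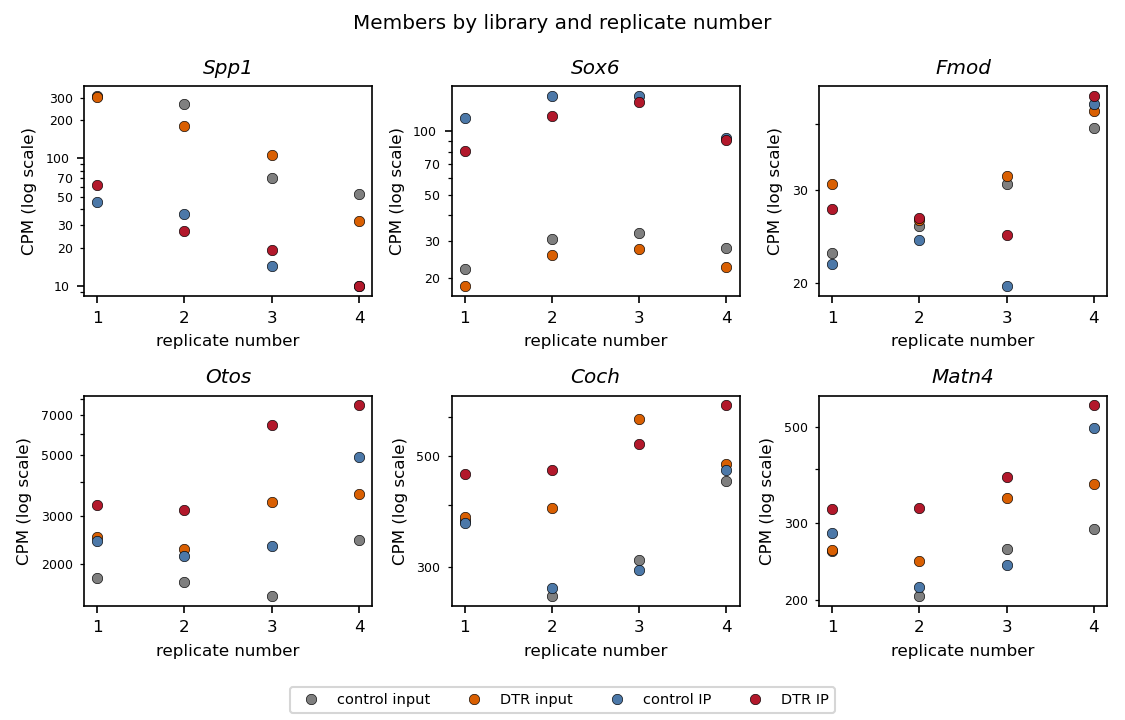
CPM (vertical axis, log scale) of 6 genes against the replicate number for the 4 groups, 1 point per library. The numbers name pools and are no order. Fmod was at 39.3 to 45.2 CPM in the libraries numbered 4 and at 19.7 to 31.8 CPM elsewhere, and Sox6 in IP at 80.6 to 148 CPM lay above input at 18.3 to 32.8 CPM at every number.

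Other genes of these tissues, outside the 32, were read from lists of fixed content. After damage 7.17% of all tested genes were called higher and 5.21% lower in input, and 8.44% and 7.3% in IP. These shares apply to the counts of the lists and of the cell markers below. Of 25 genes of fibroblast matrix, all tested, 0 were called in input after damage. In the IP 5 were higher and 1 lower, with a median LFC of 0.38 against −0.00432 for all genes. With median centring 4 and without quantile normalisation 7 were higher, and 1 was lower in each. The collagen chain Col6a3 went from 15.2 ± 2.34 to 31.5 ± 6.17 CPM (LFC 0.96, SE 0.15, adjusted p = 0.000181), Col1a2 had an LFC of 0.65 and Col5a2 of 0.64. The lower gene was Lox, the enzyme that crosslinks collagen (LFC −0.51). In control IP against input 14 of the 25 were lower and 0 higher, where 20.7% and 19.3% of all tested genes were called. The lower ones were led by Fbln2 (LFC −1.72), Col3a1 (−1.49) and Thbs2 (−1.44).

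Of 20 further cartilage genes 17 were tested. In input 2 were higher after damage, Ucma (LFC 0.64) and Epyc (0.49), and in IP 3 were higher, Ucma (1.02), Col2a1 (0.55) and Col11a1 (0.54). With median centring 1 was higher in each, and without quantile normalisation 1 in input and 3 in IP. The only one of them called lower in either was Fgfr3, which supporting cells of the organ of Corti also express, at 193 ± 24.2 CPM in control and 19.2 ± 6.58 CPM in DTR input (LFC −3.32, adjusted p = 3.96e-10). Of 18 further bone genes 9 were tested. Col22a1 was lower after damage in input and IP (LFC −1.48 in each) and Msx1 in IP (−0.85), and 0 were higher. With median centring or without quantile normalisation 1 bone gene was lower in IP. Of 16 further mesenchymal transcription factors 11 were tested, and Foxc1, a forkhead factor, was the one called after damage, in the IP (LFC 0.51, adjusted p = 0.00663), where both other scalings called 2 of them higher.

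Markers of other cells moved in the same libraries. The 5 spiral ligament fibrocyte markers summed to 1224 to 1636 CPM in control input and 1432 to 1785 in DTR input, where 0 were called. In the IP they summed to 1128 to 1224 CPM in control and 1513 to 1861 in DTR, where 2 of 5 were called higher. These 2, Car3 and Slc12a2, at 560 and 697 CPM in control input, made up most of the sums. Mean Slc26a4 was lower after damage, at 9.01 and 5.94 CPM in input and 8.66 and 3.99 in IP. Mean Cldn11 was lower in input (18.4 and 14.3 CPM) and nearly equal in IP (12.2 and 12.4), and mean Aqp1 was higher in both. The 7 macrophage markers summed to 117 to 122 CPM in control input and 161 to 259 in DTR input, and to 17.2 to 26.1 in control IP and 40.2 to 60.8 in DTR IP, with 5 of 7 higher in each. The 6 Schwann cell markers summed to 1909 to 3353 CPM in control input and 905 to 1303 in DTR input, and to 654 to 1005 in control IP and 443 to 572 in DTR IP, with 4 of 6 lower in input and 2 of 6 in IP. Of 5 markers of melanocytes and stria 3 were tested and 1 was lower in each. Hair cell markers had 1 of 8 lower in input, and 3 higher and 1 lower in IP, and of the endothelial and pericyte markers 1 of 5 was called, higher in IP. In control IP against input all 7 macrophage, all 5 endothelial and pericyte, 7 of 8 hair cell and 5 of 6 Schwann cell markers were lower. The same held for 2 of the 5 fibrocyte markers, with 0 higher, and for 20.7% of all tested genes. Of 8 osteoclast markers 3 were tested and 0 called after damage. Of these, Ctsk stood at 84.4 ± 8.59 CPM in control input and 108 ± 18.9 in DTR input (SD, n = 4). Mmp9 was at 4.51 ± 2.04 and 5.92 ± 2.44 CPM and Acp5 at 2.05 ± 0.891 and 3.57 ± 1.33 CPM in the same groups. Calcr and Dcstamp were at 3 reads or fewer in every input library. The part of these cells in the changes of the 32 genes was not tested.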

How the data were processed

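RNA of 8 pools of P4 cochleae was sequenced as input and IP (16 libraries, SMART-Seq v4). The study's methods name HISAT2, HTSeq and GRCm38, the submitters' processing notes TopHat; the annotation release and strand setting are not given in the sources used here. The authors deposited CPM per gene, and 100% of the values above 0 were whole multiples of 1 read (tolerance 0.02), so counts were recovered for edgeR (version 4.0.16) and DESeq2 (version 1.42.0). CPM of 47729 genes were quantile normalised and log2 transformed (pseudocount 0.5). Genes had to reach 0.5 CPM in each of the 4 libraries of some group (16994 genes), and group means were fitted over all libraries in limma (3.58.1, under R 4.3.3) with its trend option and Benjamini-Hochberg adjustment. The fit was also run on simulated counts of independent libraries. These lacked the correlation of same-numbered libraries given below, so the run does not show how the fit behaves under it. The p-values are two-sided. Groups follow the sample titles.

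Same-numbered libraries deviated together on average (lowest correlation of any such pair 0.288). Single pairs of different numbers reached 0.290 for control input with control IP. Deviations were taken from the mean of each group, which by itself puts the mean correlation of differently numbered pairs below that of same-numbered pairs where the latter is positive. For IP and input the number marks the pool. For control and DTR the pairing rests on this correlation alone. Same-numbered pairs had a mean of 0.357 in input and 0.388 in IP, and a lowest value of 0.291 and 0.306. Differently numbered pairs had a mean of −0.119 and −0.129 and reached up to 0.226 and 0.229.

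Per-library values are given for called, non-overlapping genes, up to 4 per direction by LFC in each comparison, for Pou3f4, Tbx18 and Sox9, and for the genes nearest the filter. Roles, coordinates and exon lengths follow GENCODE M21. The genes, lists and tests were chosen with earlier results of these data known. Alternatives were other scalings, filters, pseudocounts, tools, blocks and each library left out. Reads without molecular identifiers are not independent, so read floors cover counting error only.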

Additional observations from a re-analysis of the deposited data

Results flagged for a closer look

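Of 116 sets of 4 libraries (29 genes in 4 groups), 6 held a library whose gap to the nearest other, divided by the whole range, exceeded Dixon's critical value for 4 samples. Chance flags about 1 in 20. The highest library stood apart for Otos in control IP (0.895), at 4925 CPM against 2144 to 2436 in the other 3, for Fmod in DTR IP (0.854), at 45.2 against 24.6 to 27.6, and for Alpl in DTR IP (0.863), at 14.7 against 11.8 to 12.2 CPM. All 3 were replicate 4. The lowest library stood apart for Lum in control IP (0.882), with replicate 4 at 1672 CPM and the others at 1774 to 1788, for Ogn in DTR input (0.850), with replicate 4 at 103 and the others at 158 to 168 CPM, and for Sox5 in DTR input (0.882), with replicate 1 at 41.8 and the others at 47.3 to 48.1 CPM. Without DTR input replicate 4, Ogn remained called after damage in input.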

How the results depend on the processing

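Counts of called genes are given for DTR against control input (6), DTR against control IP (9), control IP against input (14) and DTR IP against input (11). With an absolute LFC of at least 1 after damage, or 2 for IP against input, and a separation between groups above 1.5, they were 0, 0, 3 and 2. In DTR against control IP the count was 5 with median centring and 4 with edgeR. With the replicate block by number it was 10 in DTR against control input, and with the pool as a replicate block 17 in DTR IP against input. The blocks ended no call. Leaving out 1 library gave 3 to 6, 4 to 9, 11 to 14 and 7 to 10. The interaction stayed at 0 in each alternative tried. Across single calls and alternatives 674 values kept direction and call, 111 kept direction and lost the call, and 0 reversed, and the cause was not tested. Levels of Matn3, Bglap and Comp rest on at most 19 reads in a library, and the smallest LFC called after damage was 0.34.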
